A study of Homo sapiens with 8 samples.

Results

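H3K27ac was described at the promoters of genes that encode the mitochondrial respiratory chain and ATP synthase. The members were chosen by a name rule, with earlier results of these data known. A peak was taken where the authors' table named, as the matching transcription start site (TSS), a gene with 1 of 18 prefixes of these families. Antisense names, names with a hyphen and pseudogenes were left out. This gave 62 peaks for 62 genes among 31961 peaks, of which 9903 held a TSS, and the name rule left out 11 further peaks. By complex, the members were 24 subunit genes and 7 assembly factor genes of complex I, 3 subunit genes (SDHA, SDHB, SDHC) and 2 assembly factor genes of complex II, 7 genes of complex III, 9 of complex IV, counting NDUFA4 there, and 10 of complex V.

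The 8 libraries came from 4 clones isolated by dilution from CFPAC1, an established line of human pancreatic ductal adenocarcinoma. Control clones 1 and 4 were derived from cells infected with the lentiCRISPRv2 plasmid, with no guide named in the labels. IRF1-guide clones 11 and 13 were derived from cells infected with the same plasmid expressing wild-type Cas9 and a guide RNA against IRF1, which encodes an interferon-regulated transcription factor. Every clone gave 1 library without treatment (UT) and 1 library treated for 2 hours with hIFNb, taken to be human interferon beta, so 2 clones stood behind each group of 2 libraries. Each line is 1 clone, so guide and clone cannot be told apart beyond the spread of 2 clones, and IRF1 protein was not measured in these data.

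The respiratory chain passes electrons from NADH through complex I, and from succinate through complex II, to complex III and then complex IV, where oxygen is reduced. Complexes I, III and IV pump protons across the inner mitochondrial membrane, and complex V, the ATP synthase, makes ATP as protons flow back. Most subunits are encoded in the nucleus, by promoters that are typically active in every cell type and on which the factors NRF1 and GABP (an ETS factor) are known to act, and H3K27ac marks active promoters and enhancers.

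Promoter sequence is shown for the members on which the results below turn and for which RefSeq (GRCh38.p14) gave one. Each line runs 5′ to 3′ in the direction of the gene, as 200 bases of which 170 lie before the TSS and 30 run from the TSS on. The SDHA stretch lies at chr5:218150-218349 (plus strand), NDUFS1 at chr2:206159415-206159614 (minus), UQCRH at chr1:46303528-46303727 (plus), UQCRC1 at chr3:48609617-48609816 (minus) and NDUFV3 at chr21:42893139-42893338 (plus). Capitals mark an 11-base repeated unit in SDHA, and in the others the matches to CCGGAAG (ETS/GABP) or CCAAT (NFY) on either strand.
SDHA: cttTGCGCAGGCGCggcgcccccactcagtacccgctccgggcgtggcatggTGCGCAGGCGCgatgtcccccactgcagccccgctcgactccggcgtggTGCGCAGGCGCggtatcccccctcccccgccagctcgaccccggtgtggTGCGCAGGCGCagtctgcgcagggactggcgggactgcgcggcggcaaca
NDUFS1: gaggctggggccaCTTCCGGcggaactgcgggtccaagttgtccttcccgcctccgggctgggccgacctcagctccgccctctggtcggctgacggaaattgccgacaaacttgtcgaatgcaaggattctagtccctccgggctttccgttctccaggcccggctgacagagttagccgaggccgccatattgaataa
UQCRH: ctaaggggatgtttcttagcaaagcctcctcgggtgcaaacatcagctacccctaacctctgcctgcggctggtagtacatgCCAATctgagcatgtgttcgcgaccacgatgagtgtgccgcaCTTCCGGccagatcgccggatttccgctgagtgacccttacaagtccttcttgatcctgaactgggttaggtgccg
UQCRC1: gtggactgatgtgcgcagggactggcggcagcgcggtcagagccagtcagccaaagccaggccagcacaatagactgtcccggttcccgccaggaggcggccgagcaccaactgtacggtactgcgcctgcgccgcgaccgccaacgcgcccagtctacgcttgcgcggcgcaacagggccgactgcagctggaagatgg
NDUFV3: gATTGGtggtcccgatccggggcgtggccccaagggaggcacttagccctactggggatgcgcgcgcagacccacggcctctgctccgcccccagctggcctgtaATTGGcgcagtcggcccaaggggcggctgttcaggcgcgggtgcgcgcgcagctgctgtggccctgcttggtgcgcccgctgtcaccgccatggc

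The SDHA promoter carried 4 copies of TGCGCAGGCGC, starting from 167 to 20 bases before the TSS. The unit was chosen after the sequence was seen. It occurred in 315 of 15843 coding promoter windows of 300 bases (1.99%) and in 3 of the 52 member promoters with a RefSeq entry, those of SDHA, SDHAF3 and UQCR11. The SDHA window and that of its divergent neighbour CCDC127, which overlap, were the only 2 with as many copies. The SDHA window held no exact match to the letters of the 7 motifs searched, and near matches were not searched. Within the repeated unit, GCAGGCGC differs from the NRF1 core letters GCATGCGC by a G in place of a T. UQCRH held an ETS/GABP match and an NFY match upstream of its TSS, and NDUFS1 an ETS/GABP match further upstream. NDUFV3 held a pair of NFY matches, and UQCRC1 a YY1 match (AAGATGGCG) that begins 23 bases after the TSS and runs past the printed stretch.

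Across the 52 windows, read on both strands from 250 bases before to 50 after the TSS, the NRF1 core (GCATGCGC) was found in 9 (17.3%), against 4.26% of all coding promoters and 5.75% of the 5683 coding promoters whose gene was named by a peak. The ETS/GABP letters were found in 16 windows (30.8%, against 14.2% and 21.6%), and the YY1 letters in 4 (7.69%, against 2.74% and 4.33%). In 5 members the NRF1 core and the ETS/GABP match were both present, and 32 members had neither as an exact match. The SP1/KLF letters GGGCGG were found in 29 windows (55.8%, against 58.5% and 69%) and CCAAT in 18 (34.6%, against 36.4% and 36.6%). The core of the interferon response element (GAAANNGAA) was found in 3 windows (5.77%, against 7.06% and 7.48%) and the gamma-activated site (TTCNNNGAA) in 5 (9.62%, against 6.97% and 6.74%). An ETS/GABP match can overlap a gamma-activated site match, as at COX5B and SDHAF2. A match describes these letters in the window and is not a measured binding site.

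**Figure D1:**
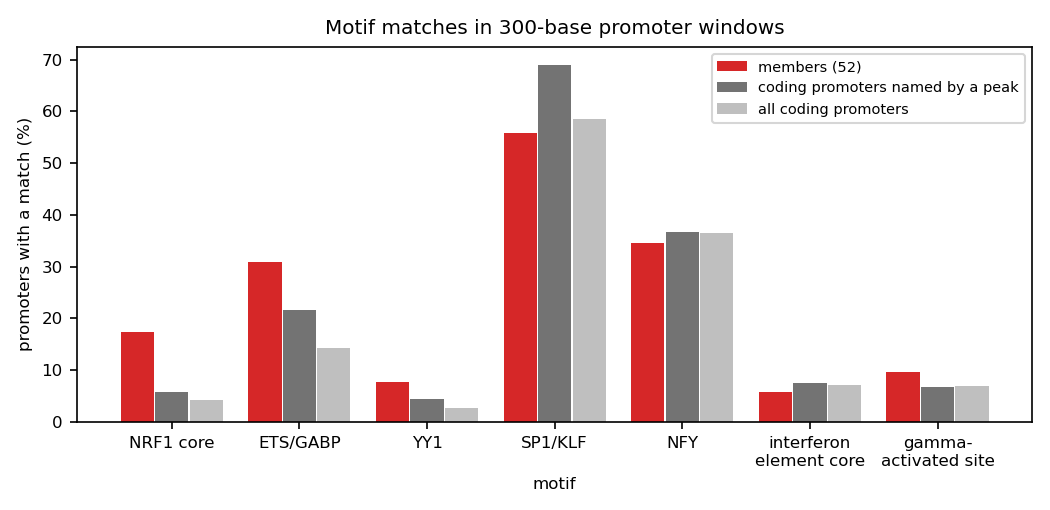
Share of promoter windows of 300 bases with a match to each motif (%), on either strand, for the 52 members with a RefSeq promoter (red), coding promoters whose gene was named by a peak (dark grey) and all coding promoters (light grey). The NRF1 core was in 17.3% of member windows and 4.26% of all coding promoters, while the interferon response element core was in 5.77% and 7.06%.

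Members lay on 21 chromosomes, and all 52 with a RefSeq promoter entry had that TSS inside the peak, at a median of 275 bp from the peak centre. Their peaks were narrow, with a median width of 2318.5 bp against 4024 bp for all peaks holding a TSS, and 42 of 62 were narrower than 3000 bp. The median score, averaged over the 8 libraries, was 48.7 against 70.8 for TSS peaks, but per kilobase the order was the other way round, 20.8 against 17.6. In 15 member peaks the TSS of another coding gene was present, and in 11 that TSS was on the opposite strand within 1000 bp. Such pairs were SDHA and CCDC127 (167 bp apart), UQCRH and LRRC41 (82 bp) and NDUFS1 and EEF1B2 (165 bp). H3K27ac in a shared peak cannot be assigned to either gene.

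The level, as score per kilobase of peak, was similar in the median for every complex, from 18.4 for complex I assembly factors to 21.6 for complex II. Among single members it ran from 8.1 per kb at ATP5F1D, the delta subunit of the ATP synthase, to 40.2 per kb at NDUFB1, an accessory subunit of complex I. The largest summed score over a peak was at NDUFS8, an iron-sulfur subunit of complex I, whose peak of 8581 bp had a mean score of 249.5. NDUFS8 scored 244 and 230 in untreated control clones 1 and 4, 234 and 204 after hIFNb, 286 and 239 in untreated IRF1-guide clones 11 and 13, and 290 and 269 after hIFNb. ATP5F1D, lowest on both scales, scored 13, 7, 14, 20, 11, 10, 17 and 11 in the same order of libraries. At ATP5F1D the control libraries with hIFNb lay above the untreated ones while the IRF1-guide groups met at 11, and low scores such as these carry a large relative error.

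The range of scores over the 8 libraries was read for each member, and was not computed for other peaks. The highest of the 8 library scores was at least 2 times the lowest in 19 of 62 members, and the median ratio of highest to lowest was 1.75. The most even member was NDUFS3, a core complex I subunit, with scores of 68, 72, 61, 70, 66, 60, 67 and 64 (ratio 1.2). The most uneven was SDHA, the flavoprotein subunit of complex II (ratio 3.18). The spread between the 2 clones of a group, as SD of the log2 score, had a median of 0.24 over members, beside 0.25 over the 3144 TSS peaks with a mean score between the members' quartiles of 33.5 and 70.5. It was largest at SDHAF3, a complex II assembly factor (0.55), and NDUFAF4, a complex I assembly factor (0.46).

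**Figure D2:**
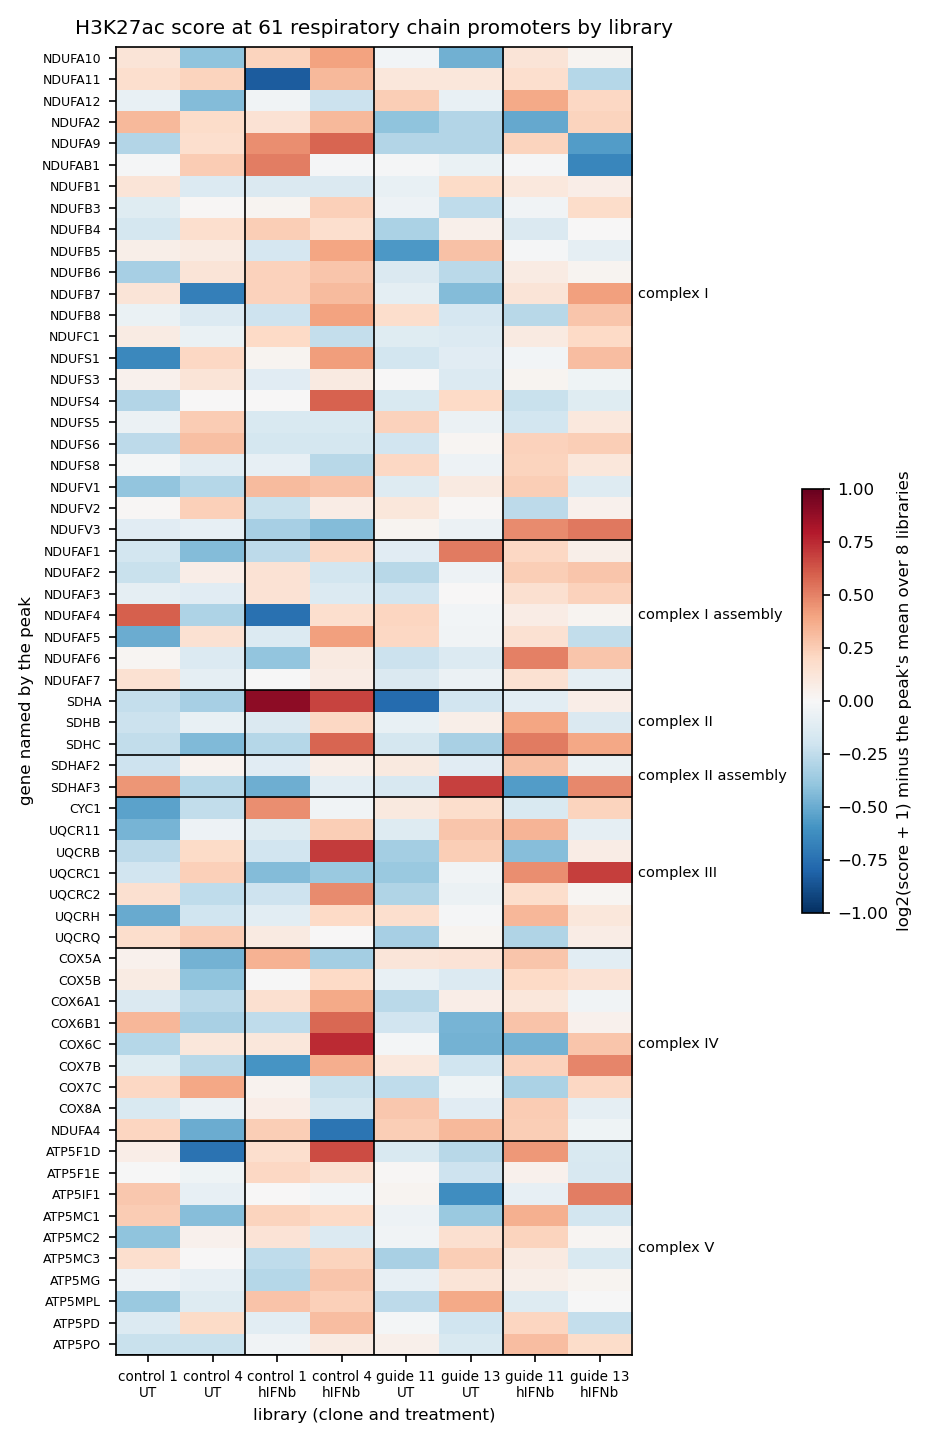
H3K27ac at 61 of the 62 members (rows, by complex) in the 8 libraries (columns). Colour is log2(score + 1) minus the mean of that peak over the 8 libraries, red above and blue below; SDHA is deepest in control clones with hIFNb, where it scored 347 and 299, and most other rows show no block of colour that follows a group.

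Scores summed over all peaks ran from 3277561 to 3460390 per library, and the number of reads behind them is unknown. The members' summed score was 0.102% and 0.102% of that total in untreated control clones 1 and 4, against 0.112% and 0.118% after hIFNb. In untreated IRF1-guide clones 11 and 13 it was 0.106% and 0.109%, against 0.124% and 0.12% after hIFNb. It was thus higher with hIFNb in every clone, also without SDHA (0.0973% to 0.104% without hIFNb, 0.102% and 0.11% in control and 0.118% and 0.114% in IRF1-guide clones with it). The share of all TSS peaks was also higher with hIFNb in every clone (47.5% to 48.7% without, 48.7% to 51.3% with). As a part of the TSS peaks' score, the members, SDHA included, rose from 0.209% to 0.222% in control clone 1 and from 0.214% to 0.243% in control clone 4. The same part rose from 0.219% to 0.241% in IRF1-guide clone 11 and from 0.229% to 0.24% in IRF1-guide clone 13. Interferon target promoters were read against the treatment label, with hIFNb over all clones. Of 8 listed peaks, 8 rose (limma, adjusted p under 0.05), with a median log2 change of 1.39, against 6.55% of all peaks called higher. The list was chosen with earlier results of these data known, so it is not an independent check. Of 4 housekeeping peaks, 0 were called. As a check of the cell type, peaks covered all 9 ductal epithelial marker genes, with summed scores of 11422 to 14300. Peaks over 2 of 6 fibroblast genes summed to 340 and 198 in control clones 1 and 4 with hIFNb and to 77 to 117 in the other libraries. No peak lay over COL1A2, LUM, DCN or PDGFRB, and the part of other cell types in the results was not tested. For the other lists, 4 of 5 leukocyte genes summed to 361 to 748, 3 of 4 endothelial genes to 558 to 896 and 2 of 4 acinar genes to 5012 to 7058.

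The first comparison asked where H3K27ac changed with 2 hours of hIFNb over all 4 clones. SDHA rose, 0 of 62 members fell and 61 did not pass the test (limma group-means model, adjusted p under 0.05 over all peaks). In this comparison 9.13% of all peaks were called, 6.55% as higher and 2.58% as lower, and of TSS peaks 6.97% were called, 6.09% as higher. Of TSS peaks with a mean score between the members' quartiles, 4.74% were called, 4.52% as higher. Whether 1 of 62 differs from these shares was not tested. At an unadjusted p under 0.05, 3 members passed (4.84%, against 19.9% of TSS peaks). The median log2 change of the members was 0.13, with 49 of 62 above 0 (79%), beside 0.11 and 64.8% for TSS peaks and 0.15 and 71.8% for TSS peaks of like score. That sign depends on the scale: with the TSS peaks of all libraries set to an equal median, which shifts every log2 change by -0.17, the members' median was -0.04. Changes beyond 0.5 in either direction were seen in 5 members (8.06%), against 15.2% of TSS peaks and 28.2% of all peaks. With the clone as a block, a treated library is set against the untreated one of its own clone. That fit called 5 members higher, among them SDHA, SDHC, NDUFS1 and UQCRH, and 0 lower. It called 16.6% of all peaks and 19.3% of TSS peaks higher, and 5068 of 31961 peaks and 842 of 9903 TSS peaks lower.

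SDHA, at chromosome 5, 211922 to 221138, is the widest member peak (9217 bp). It scored 158 and 148 in untreated control clones 1 and 4 and 347 and 299 after hIFNb. In untreated IRF1-guide clones 11 and 13 it scored 109 and 163, and 173 and 195 after hIFNb. All 4 libraries with hIFNb lay above all 4 without, and the control clones with hIFNb lay far above the rest. This pattern was seen at SDHA alone among the members (1.61%), against 10.2% of TSS peaks and 7.22% of all peaks. The rise over all clones was 0.76 ± 0.16 on the log2(score + 1) scale (SE, limma, adjusted p = 0.0146), or 1.70-fold. The call was lost on leaving out the treated library of control clone 1 (limma, adjusted p = 0.0635), the untreated one of control clone 4 (0.0508), the treated one of IRF1-guide clone 13 (0.0509) or the mean-variance trend (0.0536).

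SDHA has a pseudogene copy, SDHAP3, on the same chromosome arm. How closely the sequences match was not computed, and no other copy was examined. How reads that fit both places were treated is not given in the sources used here. SDHA is therefore uncertain as a single locus. The SDHAP3 peak, at chromosome 5, 1593144 to 1601600, scored 150 and 156 in the untreated control clones and 274 and 285 after hIFNb, and in the IRF1-guide clones 119 and 198 untreated and 191 and 242 after hIFNb. At the copy too, both control libraries with hIFNb lay above both without, while the IRF1-guide libraries overlapped, since 198 without hIFNb lay above 191 with it. It rose by 0.67 ± 0.17 over all clones (limma, adjusted p = 0.0382). SDHA also shares its peak with the start of CCDC127.

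Other complex II and complex I members with small p did not pass. SDHC, a membrane anchor of complex II, scored 39 and 34 in control clones without hIFNb, 38 and 70 with it, 41 and 37 in IRF1-guide clones without and 67 and 61 with it. It was higher with hIFNb in 3 of 4 clones and level in control clone 1, with a change of 0.60 ± 0.22 (limma, adjusted p = 0.124; with the clone as a block, 0.0113). NDUFB7, an accessory subunit with the narrowest peak (883 bp), scored 27, 15, 29, 31, 23, 18, 27 and 33 in the same order, higher in 4 of 4 clones. The treated and untreated libraries were separate within each genotype and met at 27 over all clones, with a change of 0.54 ± 0.25 (limma, adjusted p = 0.212). NDUFS1, which carries iron-sulfur clusters on the electron path of complex I, scored 55, 100, 88, 116, 76, 80, 85 and 107. NDUFS1 was higher with hIFNb within 4 of 4 clones, while treated and untreated libraries overlapped in the control clones, and it was called with the clone as a block alone (limma, adjusted p = 0.0313).

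By complex, the median log2 change over all clones was 0.12 for complex I, 0.11 for its assembly factors, 0.60 for the 3 complex II subunits, -0.12 for the 2 complex II assembly factors, 0.18 for complex III, 0.24 for complex IV and 0.16 for complex V. SDHB, the iron-sulfur subunit of complex II, had the smallest change of its complex, 0.15. At complex III, UQCRH, the hinge protein that binds cytochrome c1, scored 101, 125, 133, 165, 161, 142, 181 and 155, higher with hIFNb within 4 of 4 clones and called with the clone as a block alone (limma, adjusted p = 0.0399). Complex IV ran from -0.15 to 0.33 and complex V from -0.05 to 0.55, with 0 of their 9 and 10 members called. At complex IV, COX5A, a nuclear-encoded subunit, scored 72, 50, 89, 55, 76, 77, 85 and 65, and COX8A, the member of that complex with the highest mean score, 108, 115, 126, 106, 145, 111, 143 and 113. In both, libraries of a group differed by as much as the treatments did. At complex V, ATP5MC1, a gene for the c-ring of the ATP synthase, scored 124, 77, 121, 119, 100, 80, 133 and 91, and the clone numbers 4 and 13 were the lower ones without hIFNb. The negative end was held by SDHAF3 (-0.34 ± 0.32) and NDUFA11, a complex I accessory subunit (-0.31 ± 0.29), and neither passed (limma, adjusted p = 0.538 for each).

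Agreement between clones was compared with that of other promoters. Within clones, 13 of 62 members were higher with hIFNb in 4 of 4 clones (21%, against 26.4% of TSS peaks and 19.9% of all peaks), and 0 members were lower in 4 of 4 (12.1% and 20.4%). The median change of the members was 0.07 in control clone 1, 0.22 in control clone 4, 0.17 in IRF1-guide clone 11 and 0.08 in IRF1-guide clone 13, beside 0.06, 0.10, 0.15 and 0.10 for TSS peaks. Members in shared peaks had a median of 0.09 (n = 15) and those in unshared peaks 0.17 (n = 47). Members with an ETS/GABP match (n = 16) and those without (n = 36) had the same median, 0.12, as did members with an NRF1 core (n = 9) and without (n = 43). The 3 members with an interferon response element core had a median of 0.27. These medians describe small sets and were not tested.

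In control clones alone, SDHA rose and 0 members fell, against 4.74% of all peaks called, 4.07% as higher and 0.676% as lower. Of TSS peaks 3.49% were called, 3.27% as higher. The mean score of SDHA was 153 ± 7.1 without hIFNb and 323 ± 33.9 with it (SD, n = 2 each), a rise of 1.07 ± 0.22 on the log2 scale (limma, adjusted p = 0.0233). Leaving out any of the 4 control libraries ended this call (limma, adjusted p from 0.085 to 0.165), as did no trend (0.0753) and an equal median over TSS peaks (0.0504). The clone block called 3 members higher, among them SDHA and UQCRH, against 13.4% of all peaks and 13.3% of TSS peaks called higher. The next smallest p without the block belonged to changes of 0.64 ± 0.29 at NDUFV1, the NADH-binding subunit (limma, adjusted p = 0.259), and 0.61 ± 0.28 at CYC1, cytochrome c1 of complex III (0.27). In IRF1-guide clones alone limma called 0 of 62 members, against 1.22% of all peaks and 1.52% of TSS peaks. In that comparison 2 members passed at an unadjusted p under 0.05 (3.23%, against 10.8% of TSS peaks and 12.7% of all peaks). The clone block called SDHA higher (limma, adjusted p = 0.022), against 7.44% of all peaks and 9.99% of TSS peaks called higher. SDHA had mean scores of 136 ± 38.2 and 184 ± 15.6 there, a change of 0.46 ± 0.22 (limma, adjusted p = 0.425).

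Whether the response differed between genotypes was tested as an interaction. Limma called 0 members and 0% of all peaks. At an unadjusted p under 0.05, 2 of 62 members passed (3.23%, against 2.01% of TSS peaks and 3.94% of all peaks). The clone block called 0 members and 0.763% of all peaks. At SDHA the response of the IRF1-guide clones minus that of the control clones was -0.61 ± 0.32 (limma, adjusted p = 1; blocked, 0.155), so a difference was not shown. UQCRC1, a core protein of complex III, scored 25 and 34 in control clones without hIFNb, 21 and 22 with it, 22 and 28 in IRF1-guide clones without and 40 and 47 with it. Its 2 control clones were lower with hIFNb and its 2 IRF1-guide clones higher, an interaction of 1.20 ± 0.44 that did not pass (limma, adjusted p = 1; blocked, 0.202). NDUFV3, a small flavoprotein subunit of complex I, scored 49 and 50, then 42 and 39 with hIFNb, in control clones, and 54 and 51, then 74 and 77, in IRF1-guide clones. It had the same arrangement, with an interaction of 0.80 ± 0.34 (limma, adjusted p = 1; blocked, 0.269).

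**Figure D3:**
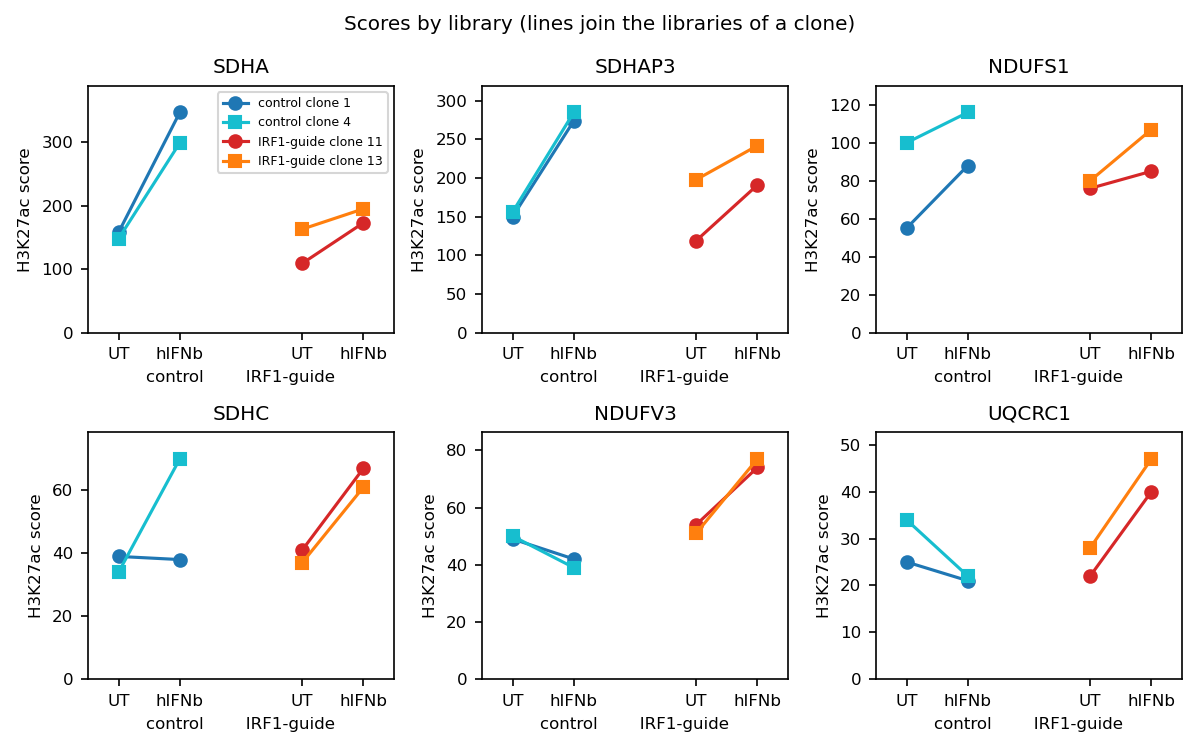
H3K27ac scores (linear axis from 0) of SDHA, its pseudogene copy SDHAP3, NDUFS1, SDHC, NDUFV3 and UQCRC1 in each library, without (UT) and with hIFNb, with a line for each clone. SDHA and SDHAP3 are steepest in the control clones, and NDUFV3 and UQCRC1 slope down in control and up in IRF1-guide clones; these opposed slopes did not pass the interaction test.

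Between genotypes without hIFNb, limma called 0 of 62 members and 0% of all peaks. At an unadjusted p under 0.05, 0 members passed, against 7.67% of TSS peaks and 12% of all peaks. The median log2 difference of the members (IRF1-guide minus control) was 0.00. The smallest p in each direction belonged to 0.43 ± 0.22 at UQCRH and -0.60 ± 0.32 at NDUFA2, a complex I accessory subunit (limma, adjusted p = 0.475 and 0.494). With hIFNb, 0 members were called against 2.43% of all peaks and 0.98% of TSS peaks. The median was 0.02. At an unadjusted p under 0.05, 3 members passed (4.84%, against 9.91% of TSS peaks and 16.3% of all peaks). These were NDUFV3 at 0.88 ± 0.24 (limma, adjusted p = 0.0872), SDHA at -0.81 ± 0.22 (0.0947) and UQCRC1 at 0.98 ± 0.31 (0.143). Over both treatments, on clone means, limma called 0 members against 0.516% of all peaks and 0.263% of TSS peaks, and the median was 0.02. There SDHA alone passed at an unadjusted p under 0.05 (1.61%, against 7.53% of TSS peaks and 14.7% of all peaks). Its difference was -0.50 ± 0.21 (limma, adjusted p = 0.314). NDUFV3 was the sole member with all 4 IRF1-guide libraries above all 4 control libraries (1.61%, against 3.42% of TSS peaks and 3.79% of all peaks), by a margin of 50 to 51 at the closest. These comparisons share libraries with the hIFNb comparisons above.

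Other mitochondrial genes were read from lists, for which limma called 9.13% of all peaks and 6.97% of TSS peaks with hIFNb over all clones as background. Of 28 peaks for assembly factors and electron carriers outside the members, 0 were called with hIFNb over all clones, with a median of 0.13, and COX17, a copper chaperone for complex IV, had the smallest p (0.51 ± 0.20, limma, adjusted p = 0.134; blocked, 0.0168). With the clone as a block, limma called 1 peak of this list higher and 1 lower. It called 16.6% of all peaks higher and 5068 of 31961 lower. Of 14 peaks of the tricarboxylic acid cycle, 0 were called, with a median of 0.25, and SUCLA2, a succinyl-CoA ligase subunit, had the smallest p (0.45 ± 0.25, limma, adjusted p = 0.295). IDH2, the mitochondrial isocitrate dehydrogenase, had the smallest p of that list in control clones (1.07 ± 0.60, limma, adjusted p = 0.363; blocked, 0.000105). Between genotypes with hIFNb it differed by -1.71 ± 0.60 without passing (limma, adjusted p = 0.184). Of 12 peaks for regulators of mitochondrial biogenesis, 0 were called, with a median of 0.10, and YY1 had the smallest p (0.45 ± 0.16, limma, adjusted p = 0.114; blocked, 0.00634). The clone block called 1 peak of the tricarboxylic acid cycle list and 2 of the biogenesis list higher, and 0 of either lower. Of 16 peaks for protein import and inner membrane proteins, 1 rose and 0 fell, with a median of 0.04: PHB1, prohibitin of the inner membrane, at 0.88 ± 0.23 (limma, adjusted p = 0.0412). The 4 lists had 0 calls in the interaction and in every comparison between genotypes. Few or no peaks were called there at all. The shares of all peaks were 0% in the interaction and between untreated genotypes, 2.43% with hIFNb and 0.516% on clone means.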

How the data were processed

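H3K27ac chromatin immunoprecipitation was sequenced from 8 libraries. Bowtie2 was the aligner and GRCh38 (hg38) the genome, per the submitters' processing notes. For the peak caller, counter, scaling and treatment of reads with several matches, details were not given in the sources used here. Each peak and library has a deposited score normalised by the authors and rounded to whole numbers, so depth is unknown. Members and lists were chosen with earlier results of these data known. The table names 1 gene per peak, so shared promoters were found from RefSeq coding TSSs (GRCh38.p14): of 99 family genes, 61 were members under their current name, 19 lay in a peak named for another gene or none, 11 in no peak, and 8 had no promoter entry. All 62 members matched a RefSeq symbol, 2 through an older one.

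Scores were analysed as log2(score + 1) in limma 3.58.1 (R 4.3.3), with no filter, in a group-means model of 8 libraries with a trend of variance on mean score, and p-values were adjusted by Benjamini-Hochberg over 31961 peaks; a call is an adjusted p under 0.05. Genotypes over both treatments were compared on 4 clone means. Named genes were those called, the 4 of smallest p in each direction of each comparison, the highest and lowest mean score of each complex, in the other lists the called peak and that of smallest p, and SDHA; NDUFS1, UQCRH, NDUFS3, COX5A, ATP5MC1, NDUFAF4, NDUFB1, COX5B, SDHAF2 and SDHB are also named for values seen. Not every member that this rule takes is named in the text: 1 is not reported here, and others that did not pass are covered by the counts and ranges. P-values of the group-means and clone-means fits measure the spread between clones. Those with the clone as a block measure how the hIFNb response varies between the clones of a genotype. The 2 libraries of a clone come from the same line, so clone was also fitted as a replicate block; deviations from group means correlated between a clone's libraries at 0.437 (control) and 0.392 (IRF1-guide) over all peaks, and at 0.00212 and 0.123 over members. The scripts were tested on simulated data. The alternatives were another pseudocount, a filter, other scalings, no trend, fewer libraries and other member sets.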

Additional observations from a re-analysis of the deposited data

How the results depend on the processing

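Of 327 planned recomputations of the member counts and medians, 304 kept their value within the limits set, and 23 moved. Many of them were counts of 0 that stayed 0, in part where few or no peaks at all were called. The share that kept its value therefore says little about how stable the calls are. With hIFNb over all clones, members called higher went from 1 to 0 without the trend and with unshared promoters alone, and to 5 with the clone as a replicate block; over single libraries left out the count ran from 0 to 1. The set of unshared promoters leaves out SDHA, the single call, so its count could only be 0, here and in control clones. The median with hIFNb over all clones went from 0.13 to -0.04 under an equal median over TSS peaks. In control clones the count went from 1 to 0 under an equal TSS median, without the trend and with unshared promoters alone, and to 3 with the replicate block; it ran from 0 to 1 over libraries left out, and the median from 0.07 to 0.28. The median of 0.17 became 0.01 under an equal TSS median. In IRF1-guide clones the count of 0 became 1 with the replicate block, and the median of 0.12 became -0.06 under an equal TSS median and ran from 0.07 to 0.19 over libraries left out. The interaction median ran from -0.12 to 0.11, and the genotype median with hIFNb from -0.11 to 0.11, in both cases lowest without control clone 1 with hIFNb. A block by the column ending (R1 or R2), added after seeing the data, called 1 member higher (NDUFV3, limma, adjusted p = 0.0469) and 1 lower (SDHA, 0.0415) between genotypes with hIFNb. That block called 1.35% of all peaks and 0.909% of TSS peaks higher, and 4.6% and 2.27% lower. Adding the 19 family genes in peaks named otherwise, also chosen after seeing the data, left the counts of the main fits as they were (81 peaks). The main fits were used for this set, so its counts could not fall. Directions reversed at SDHA between untreated genotypes (from -0.48 to 0.09 over libraries left out, positive without IRF1-guide clone 11), at NDUFA11 in control clones (-1.03 to 0.13, positive without treated control clone 1) and, in IRF1-guide clones, at NDUFAB1 (-0.61 to 0.03, positive without treated clone 13) and SDHAF3 (-0.82 to 0.22, positive without treated clone 11 and, at 0.12, without untreated clone 13). None of these 4 had passed. The causes were not tested. Rounded scores and unknown depth limit members with low scores.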

Other observations

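Of the 99 RefSeq coding genes of these families, 19 had their TSS in a peak that carried the name of another gene or of none, and so fell outside the name rule. They included SDHD, the other membrane anchor of complex II, in the peak named for TIMM8B; COX4I1, a nuclear-encoded complex IV subunit, in that named for EMC8; ATP5F1A, the alpha subunit of the ATP synthase, in that named for HAUS1; and ATP5PF in that named for GABPA. With them the set held 81 peaks, the median log2 change with hIFNb over all clones was 0.17 against 0.13, and limma called 1 peak higher and 0 lower. Counts of family members by the table's gene names therefore leave out some subunits.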
